A study of Mus musculus with 6 samples.

Results

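The genes described here set the tone of blood vessels or respond to flow in endothelium, the cell layer that lines vessels: Nos3, Edn1, Ece1, Ednrb, Ace and Adm, and the Krüppel-like factors Klf2, Klf4, Klf6 and Klf10. They were chosen by symbol for their roles, with earlier results of these data known, as were the gene lists used below. All 10 of 10 symbols were rows of the count table, which held 24421 genes. All 10 also passed the filter on low counts, with 12753 genes tested. RNA came from mouse endothelial cells derived from brain, cultured and then isolated by fluorescence-activated sorting. One group was labelled Fli-1 knockout and the other WT (wild-type), with 3 libraries each, numbered 1 to 3. The cells had spent 6 days in co-culture on a vascular niche since the deletion was induced. The labels give 4-OHT (4-hydroxytamoxifen, which activates tamoxifen-dependent recombinases) in the protocol of both groups. They name neither the recombinase nor the cells that express it, neither the deleted part of Fli1 nor the strain or age of the animals. Whether a group's libraries came from separate animals or cultures is not stated either, so p-values measure only the spread between these libraries, which may be technical.

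Endothelial cells relax the muscle of the vessel wall with nitric oxide, made by the product of Nos3, and contract it with endothelin-1, made from the product of Edn1 and cut to its active form by the product of Ece1. Angiotensin-converting enzyme, the product of Ace, makes the constrictor angiotensin II and degrades the dilator bradykinin, and adrenomedullin, the product of Adm, is a dilator peptide. Laminar flow is known to raise Klf2 and Klf4 through the kinases Mek5 and Erk5 and the Mef2 factors, and both factors are known to raise Nos3 and to lower Edn1. No flow treatment is named in the labels, so these genes are described here in cultured cells.

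The counts of the gene named in the labels were higher, not lower, under the knockout label. Fli1, an ETS family transcription factor (GRCm38 chromosome 9, 32422204 to 32542861, minus strand), stood at 76.8, 111 and 77.4 CPM (counts scaled to library size with TMM factors) under the knockout label and at 45.3, 59.6 and 45.8 CPM under the wild-type label. Counts are per gene symbol and the deleted part of Fli1 is not named, so they cannot show whether the deletion took place. Values are therefore given as those under the knockout label and under the wild-type label, and every direction is that of the first against the second. Totals ranged from 17550185 to 21385951 counts. The defining endothelial markers were abundant in every library: the 10 listed summed to 13791 to 15543 CPM under the knockout label and to 12934 to 14538 CPM under the wild-type label. Replicate 2 stood apart in both groups, with 8 fibroblast markers at 898 and 1255 CPM (labelled knockout and labelled wild-type) against 112 to 437 CPM in the other 4 libraries. Same-numbered libraries deviated together from their group means, and the paired test, a fit that takes the replicate number as a block, is given beside the comparison of the groups.

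None of the 10 genes passed in the comparison of the groups, and 2 rose in the paired test. In the group comparison, edgeR's quasi-likelihood test called 0 of 10, with an adjusted p of 0.996 for each; 0 of 10 had an unadjusted p under 0.05, against 4.79% of all genes tested, and limma-voom called 0 of 10 and DESeq2 0 of 9, with no adjusted p for Ednrb. The background was low as well, with 0.00784% of all genes tested called. The paired test called Nos3 and Ace higher and 0 lower, against 4.81% of all genes called higher and 4.01% called lower (8.81% in either direction). Of all paired calls 54.5% were higher, and 39.1% with scaling by library size alone. DESeq2 with the block called 0 of the 9 to which it gave an adjusted p (all but Ednrb), and 2.92% of all genes. The median log2 fold change of the 10 genes was -0.04, and that of all genes tested was -0.0033. Nos3 and Ece1 were higher in 3 of 3 same-numbered pairs, and Klf4, Klf6 and Klf10 were lower in 3 of 3, where 20.6% and 20.1% of all genes tested did the same (40.7% in either direction). The groups did not overlap for Ece1, which was higher, and for Klf6, which was lower, against 5.25% and 4.96% of all genes tested (10.2% in either direction).

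**Figure D1:**
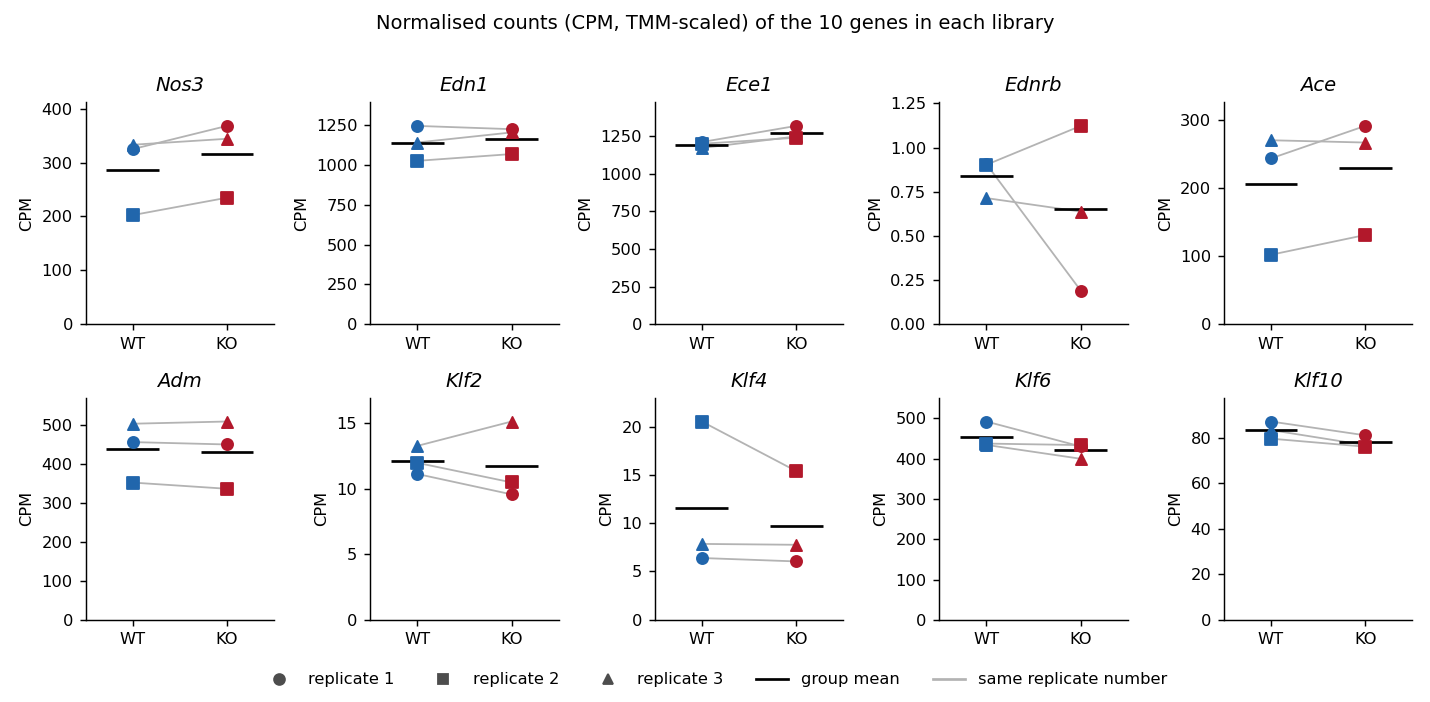
Normalised count (CPM, linear axis from 0) of each of the 10 genes in the 6 libraries, with circles, squares and triangles for replicates 1, 2 and 3, grey lines joining same-numbered libraries and black bars for the group means. Nos3, Ace and Adm are lowest in replicate 2 of both groups and Klf4 is highest there, while the lines between the groups are nearly flat for most genes.

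Nos3 encodes endothelial nitric oxide synthase (ENSMUSG00000028978, GRCm38 chromosome 5, 24364810 to 24384474, plus strand). It stood at 368, 235 and 344 CPM under the knockout label, replicates 1 to 3, and at 325, 203 and 333 CPM under the wild-type label. It was higher in the library labelled knockout of every pair, yet the groups overlapped, and replicate 2 was low in both. Means were 316 ± 71.1 and 287 ± 73.2 CPM (SD, n = 3), and the differences within the pairs were 0.18, 0.21 and 0.05 on the log2 scale. The log2 fold change was 0.14 ± 0.25 (SE, adjusted p = 0.996) between the groups and 0.15 ± 0.042 (SE, edgeR adjusted p = 0.0199) in the paired test, whose 95% interval was 0.06 to 0.23. The paired call was lost without pair 2 (0.11, edgeR adjusted p = 0.447), with DESeq2 (0.15, adjusted p = 0.107) and with scaling by library size alone (0.12, edgeR adjusted p = 0.0661). The summed endothelial markers stood at 15543, 13791 and 14017 CPM under the knockout label and at 14538, 12934 and 14228 CPM under the wild-type label. That sum was higher in pairs 1 and 2 and lower in pair 3. Its part in the paired calls of Nos3 and Ace was not tested. Nos3 shares 294 exon bases with Atg9b on the opposite strand, and the counting is not stated to use strand; Atg9b stood at 3.15 to 6.63 CPM. Antisense genes annotated across Nos3, Edn1, Ece1 and Adm were not analysed here.

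The other genes of nitric oxide signalling mostly did not pass. The list held 30 symbols, of which 28 were in the table and 23 were tested. The paired test called 4 higher and 1 lower, and 18 did not pass, where 4.81% of all genes tested were called higher and 4.01% lower. These counts include Nos3, and without it 3 of 22 were higher and 1 lower. The list's median log2 fold change was 0.03. Cav1, which encodes caveolin-1, the scaffold that binds and restrains the synthase, stood at 3754, 2849 and 3555 CPM under the knockout label and at 3366, 2285 and 3108 CPM under the wild-type label. It was higher in every pair and rose by 0.22 ± 0.042 on the log2 scale (SE, edgeR adjusted p = 1.68e-04 in the paired test), but not without pair 2 (0.17, edgeR adjusted p = 0.156). Beside this list, 10 of 10 listed cell cycle genes rose (4.81% of all genes), and their summed level was 377 to 565 CPM under the knockout label and 256 to 342 CPM under the wild-type label; their part in the counts of the list was not tested. Slc7a1, an arginine transporter named after its values were seen, had a log2 fold change of 0.17 (edgeR adjusted p = 0.0102, paired). It did not pass without pair 2 or without pair 3 (edgeR adjusted p = 0.0521 and 0.168) or with DESeq2 and the block (adjusted p = 0.143). Nos2, the inducible synthase, fell by 0.25 on the log2 scale (edgeR adjusted p = 0.00623, paired), from 37.8 ± 6.38 to 31.8 ± 4.38 CPM (SD, n = 3). It did not pass without pair 1 (edgeR adjusted p = 0.0523) or with DESeq2 and the block (adjusted p = 0.211). Gucy1a3, a subunit of the nitric oxide receptor of muscle cells, averaged 0.59 and 0.92 CPM and did not pass the filter on low counts. Its reads lay mostly in replicate 2, with 8, 26 and 0 under the knockout label and 5, 51 and 2 under the wild-type label. Gucy1b3, the other listed subunit, was tested and did not pass (-0.74, edgeR adjusted p = 0.0709, paired). It stood at 0.29, 3.80 and 0.35 CPM against 0.57, 6.79 and 0.20 CPM, highest in replicate 2 of both groups. Ass1, which makes the arginine precursor, had 0 reads in all 6 libraries.

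Edn1 encodes the precursor of endothelin-1 (ENSMUSG00000021367, chromosome 13, 42301476 to 42307990, plus strand). Its promoter, from 250 bases before to 50 after the RefSeq start (GRCm38.p6, chr13:42301226-42301525, plus strand), is shown because flow response elements were searched there. Capitals mark GAGACC, known as the shear stress response element, and CACCC, the box that Krüppel-like factors bind, on either strand.
Edn1: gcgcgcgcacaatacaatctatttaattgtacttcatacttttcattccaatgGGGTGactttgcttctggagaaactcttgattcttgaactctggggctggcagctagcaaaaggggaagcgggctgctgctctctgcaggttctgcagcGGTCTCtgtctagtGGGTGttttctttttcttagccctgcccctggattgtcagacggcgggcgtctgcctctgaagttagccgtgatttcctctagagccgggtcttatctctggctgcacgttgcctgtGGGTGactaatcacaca
GAGACC was found on the minus strand at -98 to -93 from the start, and 16.4% of 32851 mouse promoters of this length held it. CACCC was found at 3 places here and in 57.5% of all promoters.
Edn1 stood at 1226, 1069.6 and 1206 CPM under the knockout label and at 1247, 1027 and 1142 CPM under the wild-type label. The groups overlapped throughout, and pair 1 went against the other two. The log2 fold change was 0.04 ± 0.095 (SE, adjusted p = 0.996) between the groups and 0.04 ± 0.040 (SE, edgeR adjusted p = 0.664) in the paired test, with a 95% interval of -0.04 to 0.12.

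Ece1 encodes endothelin-converting enzyme 1 (ENSMUSG00000057530, chromosome 4, 137862237 to 137965229, plus strand). It stood at 1318, 1239 and 1248 CPM under the knockout label and at 1211, 1199 and 1171 CPM under the wild-type label. All 3 libraries labelled knockout were above all 3 labelled wild-type, by a small margin. The group fit gave a log2 value of 0.09 ± 0.061 (SE, adjusted p = 0.996), and the fold change was 0.09 ± 0.040 (SE, edgeR adjusted p = 0.196) in the paired test, so it did not pass in either. Its 95% interval in the paired test was 0.01 to 0.17, before adjustment over all genes.

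Ednrb encodes the endothelin B receptor, which on endothelium is known to couple endothelin to nitric oxide release and to clear the peptide (ENSMUSG00000022122, chromosome 14, 103814625 to 103844402, minus strand). Only 4, 21 and 11 reads fell on it under the knockout label, or 0.19, 1.123 and 0.64 CPM, and 19, 19 and 14 reads under the wild-type label, or 0.91, 0.90 and 0.71 CPM. The lowest and the highest library were both labelled knockout. The log2 fold change was -0.42 ± 0.39 in the paired test (SE, edgeR adjusted p = 0.6002), with an interval of -1.22 to 0.37, and it changed sign without pair 1 (0.12). At this depth the interval is wide and includes changes of either sign. The other 3 tested genes of the endothelin list did not pass either. So 0 of 6 rose or fell in the paired test (8.81% of all genes tested) and 0 of 6 in the group comparison (0.00784%). DESeq2 with the block called 0 of the 4 to which it gave an adjusted p (2.92% of all genes). Ednra, the endothelin A receptor of muscle cells, stood at 0.24, 2.78 and 0.46 CPM against 0.10, 3.47 and 1.17 CPM, highest in replicate 2 of both groups. Ece2 and Mme, which also cut endothelin precursor or endothelin, had log2 fold changes of 0.05 and 0.18 (edgeR adjusted p = 0.811 and 0.849, paired).

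Ace encodes angiotensin-converting enzyme (ENSMUSG00000020681, chromosome 11, 105967945 to 105989964, plus strand). The promoter of its first RefSeq start (GRCm38.p6, chr11:105967698-105967997, plus strand) is shown because Klf2 is known to lower Ace; capitals mark CACCC on either strand.
Ace: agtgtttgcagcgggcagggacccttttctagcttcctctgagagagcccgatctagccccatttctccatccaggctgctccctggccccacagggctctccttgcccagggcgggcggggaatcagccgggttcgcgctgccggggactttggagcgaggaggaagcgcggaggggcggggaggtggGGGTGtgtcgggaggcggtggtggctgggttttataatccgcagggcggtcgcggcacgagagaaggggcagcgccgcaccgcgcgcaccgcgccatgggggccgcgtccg
The box lies once in this window, on the minus strand at -61 to -57.
Ace stood at 291, 131 and 267 CPM under the knockout label and at 243.5, 102 and 270.2 CPM under the wild-type label. Replicate 2 was far below replicates 1 and 3 in both groups, at 0.47 and 0.398 times their geometric mean, and pair 3 showed no rise. Means were 229.7 ± 86.3 and 205 ± 90.4 CPM (SD, n = 3). The differences within the pairs were 0.26, 0.36 and -0.02 on the log2 scale. The log2 fold change was 0.16 ± 0.48 (SE, adjusted p = 0.996) between the groups and 0.19 ± 0.054 (SE, edgeR adjusted p = 0.0298) in the paired test, with an interval of 0.08 to 0.31. Without pair 2 it was 0.12 (edgeR adjusted p = 0.397), without pair 3 it was 0.31 (adjusted p = 5.22e-07), DESeq2 with the block gave 0.20 (adjusted p = 0.615), and scaling by library size alone gave 0.17 (edgeR adjusted p = 0.0625). Gm11651, an antisense gene that shares 295 exon bases with Ace, reached at most 0.0579 CPM.

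The rest of the angiotensin and kinin list was sparse. Of 16 symbols, all 16 were in the table and 5 were tested. The paired test called 1, Ace, higher (4.81% of all genes tested) and 0 lower (4.01%), and 4 did not pass; the list's median was -0.09. Ren1, the renin gene, and Agtr2, an angiotensin receptor, had 0 reads, and Agt, the angiotensin precursor, averaged 0.15 and 0.14 CPM. Lnpep and Anpep, peptidases of angiotensin, had log2 fold changes of -0.09 and -0.43 (edgeR adjusted p = 0.379 and 0.400, paired), and Atp6ap2, the prorenin receptor, 0.06 (adjusted p = 0.506).

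Adm encodes adrenomedullin (ENSMUSG00000030790, chromosome 7, 110627661 to 110629820, plus strand). It stood at 449.9, 336 and 509 CPM under the knockout label and at 456, 352 and 503 CPM under the wild-type label. Same-numbered libraries were nearly level, and replicate 2 was lowest in both groups. The group fit gave a log2 value of -0.02 ± 0.19 (SE, adjusted p = 0.996), and the fold change was -0.02 ± 0.040 (SE, edgeR adjusted p = 0.814) in the paired test, with an interval of -0.10 to 0.06. In the adrenomedullin list 7 of 10 symbols were tested: 0 rose (4.81% of all genes), 1 fell (4.01% of all genes) and 6 did not pass. The gene that fell was Ackr3, a scavenger receptor that takes up adrenomedullin and the chemokine Cxcl12. It stood at 64.6, 73.8 and 53.0 CPM against 75.7, 81.5 and 67.9 CPM, lower in every pair, and fell by 0.24 on the log2 scale (edgeR adjusted p = 0.00121, paired; DESeq2 with the block, adjusted p = 0.0558). Adm2, which encodes intermedin, a related peptide, was above the wild-type range in all 3 libraries labelled knockout, at 2.43, 2.62 and 2.90 CPM against 2.10, 1.52 and 1.33 CPM, with a log2 fold change of 0.67 (edgeR adjusted p = 0.0514, paired). It passed with DESeq2's size factors (adjusted p = 0.0477), with no filter on low counts (0.0385) and without pair 1 (0.94, adjusted p = 0.0148). Pam, which amidates the peptide, had a log2 fold change of 0.04 (adjusted p = 0.630). The receptor Calcrl and its partner Ramp2, named after their values were seen, averaged 38.9 against 38.7 CPM and 31.9 against 32.6 CPM.

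**Figure D2:**
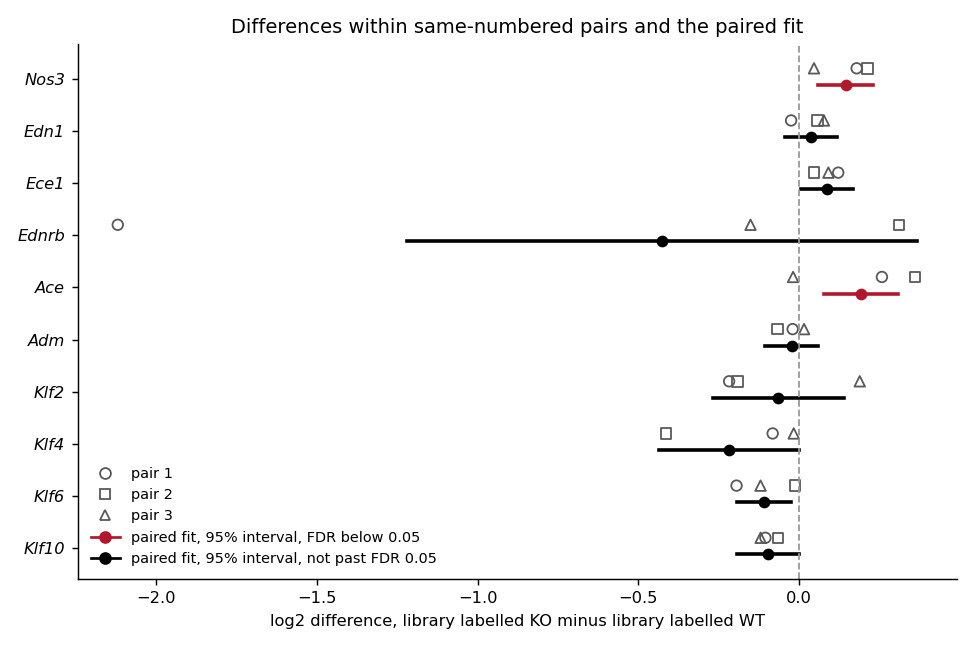
Log2 difference between the library labelled KO and the library labelled WT in each same-numbered pair (open symbols) and the paired estimate with its 95% interval (filled points with bars, before adjustment over all genes) for the 10 genes. The bars of Nos3 and Ace lie to the right of 0 and are the ones that passed the false discovery rate of 0.05, and the 3 pairs of Ednrb, which has 4 to 21 reads a library, run from -2.12 to 0.31.

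Klf2 encodes the flow-induced factor that is best known for holding endothelium quiescent (ENSMUSG00000055148, chromosome 8, 72319033 to 72321656, plus strand). Its promoter (GRCm38.p6, chr8:72318812-72319111, plus strand) is shown because the flow pathway is known to act on it through Mef2. Capitals mark matches to the Mef2 motif and to CACCC on either strand.
Klf2: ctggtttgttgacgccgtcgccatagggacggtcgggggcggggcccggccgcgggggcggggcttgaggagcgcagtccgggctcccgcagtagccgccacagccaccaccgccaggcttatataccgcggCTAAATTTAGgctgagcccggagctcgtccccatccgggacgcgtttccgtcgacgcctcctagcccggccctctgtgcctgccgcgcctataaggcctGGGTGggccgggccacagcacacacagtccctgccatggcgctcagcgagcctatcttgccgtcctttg
The Mef2 match lies at -118 to -109 on the plus strand, and 3.19% of the 32851 promoters held one; of the 8 genes with a promoter in the table, 12 promoters in all, only Klf2 did. CCGGAA, 1 longer form of the ETS site, was found in 0 of these 12 promoters and in 14.9% of all. No match says only that these letters are not in this window. The shorter ETS core GGAA was not searched for, and each promoter printed here holds it on at least 1 strand. Nos3 and Klf10 had no entry.
Klf2 stood at 9.56, 10.5 and 15.1 CPM under the knockout label and at 11.1, 11.97 and 13.3 CPM under the wild-type label. It was lower in pairs 1 and 2 and higher in pair 3, and the groups overlapped. The log2 fold change was -0.05 ± 0.18 (SE, adjusted p = 0.996) between the groups and -0.06 ± 0.10 (SE, edgeR adjusted p = 0.789) in the paired test, with an interval of -0.27 to 0.14, and it was 0.01 without pair 1.

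Klf4, a relative that shares targets with Klf2 (ENSMUSG00000003032, chromosome 4, 55527143 to 55532466, minus strand), stood at 6.04, 15.4 and 7.76 CPM under the knockout label and at 6.40, 20.5 and 7.85 CPM under the wild-type label. Replicate 2 was highest in both groups, at 2.25 and 2.90 times the geometric mean of replicates 1 and 3. The difference between the groups sat mostly in pair 2, with -0.08, -0.41 and -0.02 on the log2 scale in pairs 1, 2 and 3. The 6 libraries came in the same order by Klf4 as by the summed fibroblast markers. That sum was 112, 898 and 402 CPM under the knockout label and 153, 1255 and 437 CPM under the wild-type label. Its part in the Klf4 values was not tested. The group fit gave a log2 value of -0.25 ± 0.58 (SE, adjusted p = 0.996), and the fold change was -0.22 ± 0.11 (SE, edgeR adjusted p = 0.237) in the paired test, and -0.05 without pair 2.

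Klf6, a widely expressed factor that is induced on vascular injury (ENSMUSG00000000078, chromosome 13, 5861482 to 5870394, plus strand), stood at 430.0, 433.5 and 399.5 CPM under the knockout label and at 492, 437 and 434 CPM under the wild-type label. All 3 libraries labelled knockout were below all 3 labelled wild-type, with almost no gap at pair 2. On the log2 scale the fold change was -0.11 ± 0.073 (SE, adjusted p = 0.996) between the groups and -0.11 ± 0.042 (SE, edgeR adjusted p = 0.104) in the paired test. With scaling by library size alone it fell, by 0.14 on the log2 scale (edgeR adjusted p = 0.0309, paired).

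Klf10, which transforming growth factor beta is known to induce (ENSMUSG00000037465, chromosome 15, 38291463 to 38300706, minus strand), stood at 81.1, 76.1 and 76.8 CPM under the knockout label and at 87.2, 79.7 and 83.4 CPM under the wild-type label. It was lower in every pair, by 0.10, 0.07 and 0.12 on the log2 scale, and the groups overlapped. On the log2 scale the fold change was -0.10 ± 0.057 (SE, adjusted p = 0.996) between the groups and -0.10 ± 0.048 (SE, edgeR adjusted p = 0.243) in the paired test, with an interval of -0.19 to 0.0005.

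Across the Klf family, 13 of 17 genes were tested. The paired test called 0 higher and 1 lower, and 12 did not pass, against 4.81% of all genes higher and 4.01% lower; the list's median log2 fold change was -0.09. Klf3, a repressor, stood at 41.9, 50.6 and 41.0 CPM under the knockout label and at 48.4, 56.4 and 45.0 CPM under the wild-type label. It was lower in every pair and fell by 0.17 on the log2 scale (edgeR adjusted p = 0.0481, paired). It did not pass when any pair was left out (edgeR adjusted p = 0.0698 to 0.260) or with DESeq2 and the block (adjusted p = 0.510). Klf9 and Klf8 had log2 fold changes of -0.18 and 0.29 (edgeR adjusted p = 0.0781 and 0.250, paired). Klf9 passed with scaling by library size alone (-0.21, adjusted p = 0.0345), and Klf8 ran from 0.14 to 0.47 when a pair was left out, without passing. In 3 of 3 pairs, 6 of the 13 were lower and 0 were higher, where 20.1% and 20.6% of all genes were. Several of these factors are known to respond fast to stimulation, as immediate early genes do. Of 18 immediate early genes, 10 fell in the paired test (4.01% of all genes tested), 0 rose and 8 did not pass. The summed level of that list was 1149 to 1222 CPM under the knockout label and 1370 to 1506 CPM under the wild-type label. Its part in the Klf values was not tested.

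Most genes that sense flow and signal to Klf2 did not pass. Of 24 listed, 23 were tested; the paired test called 0 higher and 2 lower, and 21 did not pass, close to the 8.81% of all genes called in either direction; the list's median was 0.02. The genes that fell were Map3k2, a kinase upstream of Mek5, at 30.8, 29.99 and 26.4 CPM against 39.3, 36.4 and 29.99 CPM, and Krit1, an adaptor known to hold the pathway back, at 55.0, 51.2 and 51.0 CPM against 65.0, 57.4 and 59.4 CPM. Both were lower in every pair. Their log2 fold changes were -0.28 and -0.21 (edgeR adjusted p = 0.00297 and 0.00616, paired; DESeq2 with the block, 0.150 and 0.172). Pecam1, part of the junctional flow sensor, had a log2 fold change of 0.09 (edgeR adjusted p = 0.205, paired).

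Targets of Klf2 and Klf4 were read from lists of known effects. These lists were written with earlier results of these data known, so their counts are descriptions. Of 8 genes known to be repressed, all 8 were tested; the paired test called 4 higher and 0 lower, and 4 did not pass, beside 4.81% of all genes higher and 4.01% lower; the list's median log2 fold change was 0.12. Vcam1, a leukocyte adhesion molecule, stood at 761.9, 704 and 736 CPM under the knockout label against 679.7, 543 and 600.1 CPM, without overlap, and rose by 0.28 ± 0.042 (SE, edgeR adjusted p = 5.51e-06, paired). Sele, the adhesion molecule E-selectin, rose by 0.65 ± 0.11 (SE, adjusted p = 4.56e-05) from low levels of 4.39, 12.9 and 6.53 CPM under the wild-type label to 7.57, 17.2 and 11.8 CPM. Vcam1 and Sele also passed when any one pair was left out and with DESeq2 and the block, while the groups overlapped for Sele. Ace, described above, rose as well, and Edn1 is among the 4 that did not pass. Without Ace and Edn1, 3 of 6 were higher and 0 lower.

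Of the genes known to be activated by these factors, 11 were tested: 2 rose and 2 fell, and 7 did not pass (all genes tested, 4.81% higher and 4.01% lower); the list's median was -0.09. Nos3 rose, as did Tek, the angiopoietin receptor, by 0.16 (edgeR adjusted p = 0.0158, paired). Tek did not pass without pair 2 (edgeR adjusted p = 0.288) or with DESeq2 and the block (adjusted p = 0.182). Aqp1, a water channel, stood at 10.8, 9.998 and 0.52 CPM against 21.2, 12.5 and 1.02 CPM and fell by 0.69 on the log2 scale (edgeR adjusted p = 1.47e-04, paired), with replicate 3 close to 0 in both groups, and did not pass without pair 1 (-0.39, adjusted p = 0.202). Cyp1b1, a cytochrome P450, stood at 1.95, 49.2 and 16.9 CPM against 3.34, 66.9 and 18.5 CPM and fell by 0.37 (edgeR adjusted p = 0.00221, paired). It did not pass without pair 2 (-0.28, edgeR adjusted p = 0.376) or with DESeq2 and the block (adjusted p = 0.121). Its order across the libraries was that of the summed fibroblast markers, at 112, 898 and 402 CPM against 153, 1255 and 437 CPM; their part in its result was not tested.

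Among 23 other vasoactive receptors and enzymes, 18 were tested: 1 rose and 0 fell, and 17 did not pass (all genes tested, 4.81% higher and 4.01% lower); the list's median was 0.01. Npr3, the clearance receptor of natriuretic peptides, rose from 31.8, 33.97 and 34.6 CPM to 37.4, 45.0 and 41.4 CPM, by 0.30 on the log2 scale (edgeR adjusted p = 5.56e-04, paired), without overlap. It did not pass without pair 2 (edgeR adjusted p = 0.0715) or with DESeq2 and the block (adjusted p = 0.0512). P2ry1, a receptor for ADP, and Ptgis, the prostacyclin synthase, had log2 fold changes of 0.48 and 0.20 (edgeR adjusted p = 0.0576 and 0.1003, paired). Ptgis passed without pair 3 (0.37, adjusted p = 8.195e-04) and with no filter on low counts (0.20, adjusted p = 0.0430).

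**Figure D3:**
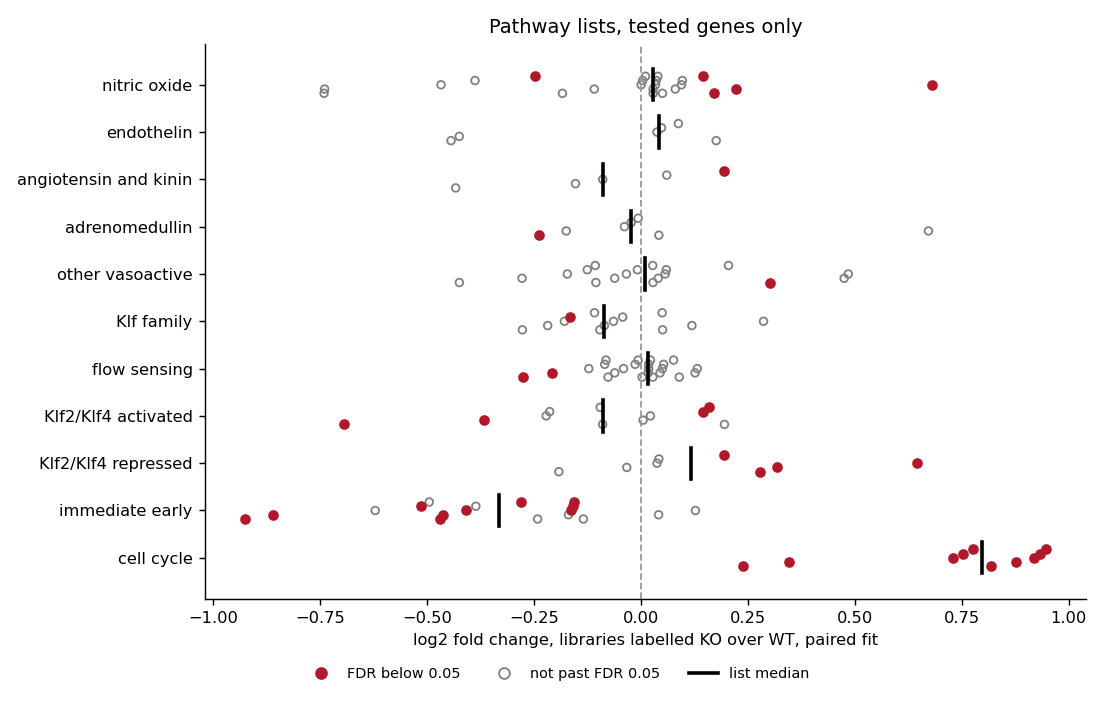
Log2 fold change of every tested gene of the 9 pathway lists, and of the immediate early and cell cycle lists, in the paired test; filled red points passed a false discovery rate of 0.05, and black bars are list medians. The medians of the pathway lists lie between -0.09 and 0.12, against -0.33 for the immediate early list and 0.80 for the cell cycle list.

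The spread over the libraries was divided between replicate numbers and groups. Of the spread of log2 CPM over the 6 libraries, the share between replicate numbers was larger than the share between groups in 8 of 10 genes, the exceptions being Ece1 and Klf10, a share near the 79.1% of all genes tested for which the same held. It exceeded 90% in 5 of 10 (Nos3, Edn1, Ace, Klf4 and Adm), against 15.3% of all genes tested. For Adm the shares were 99.2% between replicate numbers and 0.25% between groups. For Ece1 they were 26.1% and 65.7%, and for Klf10 46.3% and 50.8%. The medians over all genes tested were 61.6% and 11.03%.

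**Figure D4:**
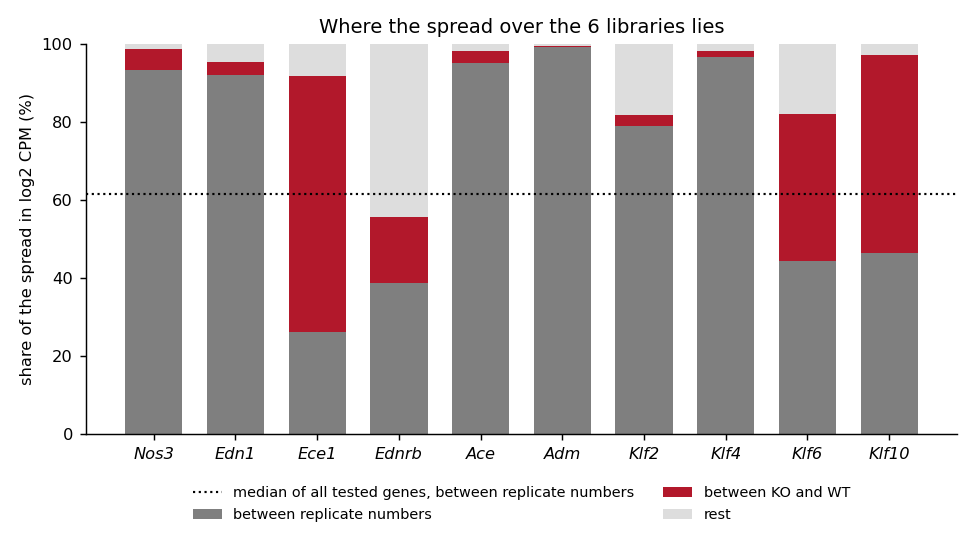
Share of the sum of squares of log2 CPM over the 6 libraries that lies between replicate numbers (grey), between the groups labelled KO and WT (red) and in the rest (light), for each of the 10 genes, with the median of all tested genes as a dotted line. Grey fills over 90% of the bars of Nos3, Edn1, Ace, Adm and Klf4.

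In the 5 genes with over 90% between replicate numbers, replicate 2 was the lowest (Nos3, Ace, Adm and Edn1) or the highest (Klf4) library of both groups. Relative to the geometric mean of replicates 1 and 3, Nos3 was at 0.66 and 0.615 (groups labelled knockout and wild-type), Ace at 0.47 and 0.398, Adm at 0.703 and 0.735 and Edn1 at 0.88 and 0.861. Klf4 was higher, at 2.25 and 2.90. Ednrb, with few reads, was at 3.22 and 1.122, and its lowest library was replicate 1 under the knockout label. In these same libraries the summed fibroblast markers were at 4.23 and 4.86, the mural markers at 1.14 and 1.49, the listed blood cell markers at 0.514 and 0.458 and the endothelial markers at 0.934 and 0.899. Most of the mural sum was Tagln and Acta2, with 133794 and 60111 reads. Cspg4 stood at 8.33, 51.8 and 4.69 CPM under the knockout label and at 14.8, 81.8 and 4.49 CPM under the wild-type label. Notch3 stood at 5.71, 37.4 and 1.51 CPM against 8.31, 50.3 and 3.16 CPM. Under the knockout label Cnn1 was not highest in replicate 2, at 8.76, 16.1 and 17.2 CPM. Of the blood cell markers, Tyrobp, Rac2, Cd52 and Spi1 had 0 reads, and nearly all of the sum was Laptm5. Nos3 and Ace were thus further below replicates 1 and 3 than the endothelial sum was. The cells had been sorted, and whether the marker reads came from fibroblasts, and their part in these values, was not tested, and in bulk RNA fewer cells of a type cannot be told apart from less RNA per cell.

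**Figure D5:**
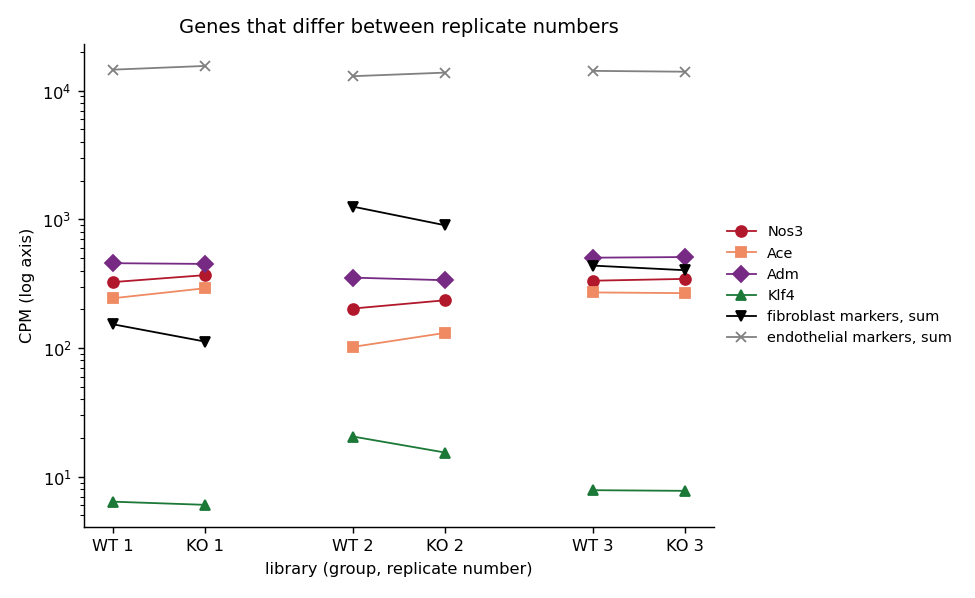
CPM (log axis) of Nos3, Ace, Adm and Klf4 and the summed CPM of 8 fibroblast and 10 endothelial markers in the 6 libraries, with same-numbered libraries joined. In replicate 2 of both groups the fibroblast sum reaches 898 and 1255 CPM, Ace is at 131 and 102 CPM and Klf4 at 15.4 and 20.5 CPM.

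Levels were compared between genes per kilobase of exons. Edn1 was highest, with 539 CPM per kilobase over the 6 libraries (480.1 to 583), and was above Adm in all 6. Adm (268, range 208 to 314) and Ece1 (232, range 221 to 249) were not separated, since Adm was above Ece1 in 4 of 6 libraries. Klf6 followed at 99.7 and was above Nos3, at 72.9, in 6 of 6 libraries. Nos3 was above Ace, at 41.1, in 6 of 6, although their ranges of 49.0 to 89.1 and 19.3 to 55.1 overlapped. Klf10 stood at 19.3, Klf2 at 6.45 and Klf4 at 3.50 CPM per kilobase, and Klf2 was above Klf4 in 5 of 6 libraries. Ednrb was last, at 0.175. Edn1 and Adm thus lay at percentiles 99.8 and 99.3 of all tested genes with a known length, Klf2 at 51.7 and Ednrb at 3.18.

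The profiles over the 6 libraries were compared with those of all tested genes of at least 10 CPM, by the root-mean-square difference of log2 CPM after centring each gene. The nearest to Nos3 were Ccbe1, Reep2 and Prr5l, at differences of 0.0495 to 0.055, and the nearest to Ace were Chac1, Eps8l2 and Tnfrsf8, at 0.0659 to 0.0833. Klf4 was nearest to Loxl3 (0.0653), Bgn (0.0891) and Acta2 (0.103), a smooth muscle actin gene, all highest in replicate 2 of both groups. Klf2 was nearest to Ltbp1, Lrwd1 and Runx1 (0.0753 to 0.0909). Adm was nearest to Zfp710, Plaur and Fam107b (0.0407 to 0.046). For Edn1 the nearest were Ostm1, Ap3m1 and Ino80c (0.015 to 0.0232), for Ece1 Lrp10, Cbfa2t2 and Myo1e (0.015 to 0.019), for Klf6 Arhgap44, Zcchc4 and Maml2 (0.0151 to 0.0208) and for Klf10 Ing5, Zbtb18 and Zgpat (0.0148 to 0.0179). Ednrb had no close neighbour: the nearest, Cxcl1, differed by 0.51. The libraries share depth and replicate number, so these are descriptions of 6 points.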

How the data were processed

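Polyadenylated RNA of 6 libraries was sequenced, per the labels' protocols with either a non-stranded or a stranded TruSeq kit; which library had which is not given in the sources used here. The deposited table holds raw read counts per gene symbol, not normalised by the authors. STAR 2.6.1d, Subread 1.6.4, featureCounts, FastQC 0.11.8 and Trim Galore 0.6.4 appear in the submitters' processing notes, as do the builds mm10 and GRCm38. Neither strand setting nor annotation nor treatment of multi-mapped reads is stated, so overlapping and antisense genes are uncertain. Gene positions, strands and exon lengths are from GENCODE M21 on GRCm38 (95.7% of symbols matched), promoters from RefSeq.

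The members, gene lists and tests were chosen with earlier results of these data known. In R 4.3.3, edgeR 4.0.16 kept genes by filterByExpr (minimum count 10), scaled by TMM (factors 0.983 to 1.02) and compared groups with the robust quasi-likelihood F test, Benjamini-Hochberg adjusted over 12753 genes at a false discovery rate of 0.05. The design has the group alone. Deviations from group means correlated at 0.76, 0.845 and 0.636 between same-numbered libraries and at -0.661 to 0.0256 between others, so libraries with 1 number were treated as a pair, on the evidence of the values alone. With the block the common biological coefficient of variation was 0.0383 (0.189 without) on 2 residual degrees of freedom (4 without), so small paired p-values rest on a spread pooled across genes. Exact permutation tests cannot go below a two-sided p of 0.1 (3 against 3 libraries) or 0.25 (3 pairs), and none was used. Differences within pairs are of log2 CPM with 0.5 added to each count. Every pair of libraries differed by more than sampling noise (chi-square over its degrees of freedom, 5.44 to 40.6). Alternatives used DESeq2 1.42.0 and limma 3.58.1 (voom), other scalings, no filter, a false discovery rate of 0.01, and leaving out libraries or pairs.

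Named genes were the 10 members, Fli1, up to 3 further tested genes of each pathway list by smallest unadjusted paired p, the highest markers, and 3 profile neighbours for each member of at least 10 CPM. Slc7a1, Gucy1a3, Gucy1b3, Ass1, Ren1, Agtr2, Agt, Calcrl, Ramp2, Cspg4, Notch3, Cnn1 and the blood cell markers at 0 were named after their values were seen. Atg9b and Gm11651 were named for their overlap with members. Promoters were searched for 11 motifs on both strands; CACCC and GAGACC do not overlap, and 8 of 10 members matched the RefSeq table. Some genes that the rule names are not reported here.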

Additional observations from a re-analysis of the deposited data

How the results depend on the processing

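The comparison of the groups called 0 genes higher and 1 lower among all genes tested; DESeq2 called 12 and 7, the replicate block 613 and 511, and 0 were lower with limma-voom or at a false discovery rate of 0.01. Leaving out 1 library gave 0 to 1 lower. Of the 10 genes, 0 passed under each alternative without the block, and the replicate block called 2 higher. The cause was not tested. Paired counts over all genes were 262 higher and 111 lower with DESeq2, 388 and 259 at the false discovery rate of 0.01, 0 and 1 with no replicate block, and 339 to 603 and 205 to 600 when a pair was left out. Calls were 54.5% higher with TMM and 39.1% with library size alone. Of the 10 genes, 0 were higher with library size alone, DESeq2, the false discovery rate of 0.01 or no replicate block, and 0 to 2 when a pair was left out (0 without pair 2); with library size alone 1, Klf6, was lower.

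Leaving out a pair gave the following numbers of list genes higher and lower in the paired test: nitric oxide 1 to 4 and 0 to 3, angiotensin and kinin 0 to 1 higher, adrenomedullin 0 to 1 higher, other vasoactive 0 to 2 and 0 to 1, Klf family 0 lower, Klf2 and Klf4 activated 0 to 2 and 1 to 3, and Klf2 and Klf4 repressed 3 to 4 and 0 to 1 (Ace was lost without pair 2). The endothelin counts stayed 0, and 2 to 3 flow sensing genes were lower. Over the genes to which DESeq2 with the block gave an adjusted p, the counts were 2 and 0 for nitric oxide, 0 and 1 for the activated list, 3 and 0 for the repressed list, and 0 for the other 6 pathway lists.

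Leaving out 1 library in the group comparison turned the sign of Nos3 (-0.0633 to 0.31), Edn1 (-0.0375 to 0.11), Ednrb (-1.05 to 0.0669), Ace (-0.16 to 0.44), Klf2 (-0.27 to 0.0784), Klf4 (-0.75 to 0.44), Adm (-0.16 to 0.13), Aqp1 (-1.24 to 0.0746), Cyp1b1 (-1.67 to 1.05), Ece2 (-0.0074 to 0.10), Ednra (-2.17 to 0.87), Mme (-0.0884 to 0.39), Pecam1 (-0.0063 to 0.16) and Ptgis (-0.0626 to 0.60), of which none passed. Leaving out a pair in the paired test turned Ednrb (-1.04 to 0.12), Klf2 (-0.20 to 0.0060), Ece2 (-0.0454 to 0.15), Lnpep (-0.14 to 0.0012) and Mme (-0.0927 to 0.32). Ednra could not be tested without pair 2. Depth limits Ednrb, Ednra, Mme and Anpep, whose group means are under 2 CPM.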
